A study of Mus musculus with 8 samples.

Results

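The genes examined here encode the subunits of voltage-gated calcium channels, voltage-gated sodium channels and hyperpolarisation-activated, cyclic nucleotide-gated (HCN) channels. Members were all genes of the count table whose symbols begin with Cacna1, Cacna2d, Cacnb, Cacng or Hcn, or have the form Scn followed by a number and a or b. There were 44 such genes among 55536, and 17 of them had a mean of at least 1 CPM (1 count among 1000000 of a library) over the 8 libraries, of which 15 are described. Poly(A) RNA was sequenced from alphaTC6, a mouse line of glucagon-producing pancreatic alpha cells labelled as wild type, 48 h after reverse transfection with a lipid reagent. The reference group of 4 libraries received a scramble siRNA, and the other 4 received a pool of siRNAs against Klf4, a zinc finger transcription factor. All libraries therefore come from 1 cell line and all cultures were transfected. By the labels, batch 1 held scramble replicates 1 and 2 and Klf4 siRNA replicates 1, 2 and 4, and batch 2 held scramble replicates 3 and 4 and Klf4 siRNA replicate 3. The labels give the batches by number only, and the extraction text speaks of islets, whereas the sample labels name the cell line.

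In excitable endocrine cells, sodium channels carry the upstroke of the action potential, and calcium channels admit the calcium that drives exocytosis of hormone granules. A high-voltage-activated calcium channel is built from a pore-forming alpha1 subunit with an alpha2delta and a beta subunit, which carry it to the membrane and tune its gating, whereas T-type channels open at lower voltages and can work as the alpha1 subunit alone. Sodium channels pair a pore-forming alpha subunit with beta subunits. HCN channels open on hyperpolarisation, bind cyclic AMP and pass an inward current that brings a cell back towards its firing threshold.

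Totals ran from 45954151 to 64185987 counts per library. Klf4, the siRNA target, fell: it had between 35.1 and 46.8 CPM with scramble and between 11.5 and 19.75 CPM with its siRNA (log2 difference -1.33 ± 0.17 SE, edgeR adjusted p = 0.0083, against 0.052 without scramble replicate 1 and 0.104 in batch 1 alone, with log2 differences from -1.46 to -1.24 over 19 alternatives). All 6 alpha cell markers examined were present, among them Irx1 (194 CPM) and Irx2 (249.4 CPM), whereas the 6 beta cell markers summed to 3.09 to 3.93 CPM: Ins1, Ins2 and Pdx1 had 0 counts, Mafa 3.17 CPM, Iapp 0.17 CPM and Slc2a2 0.14 CPM. The summed markers of delta, acinar and leukocyte lists stayed under 0.1 CPM in every library, and those of the PP cell, endothelial and muscle lists reached at most 0.183, 0.437 and 0.626 CPM. The 4 fibroblast markers summed to 18.6 to 26.9 CPM (Col1a2 15.6 and Pdgfra 5.15, with means of 0.1 for Col1a1 and 0.0025 for Col3a1), and Pdgfra was lower in batch 2 (log2 difference -1.12, edgeR adjusted p = 2.94e-08). The neuron and glia markers summed to 275 to 311 CPM, nearly all from Snap25, which endocrine cells also express. Gcg, the glucagon gene, had a mean of 1174 CPM in batch 1 and 8457 CPM in batch 2, and the summed duct markers (mainly Sox9) ran from 1.07 to 1.57 CPM in batch 1 and from 3.74 to 4.63 CPM in batch 2. The part of such shifts in the batch differences given here was not tested. In RNA from a whole culture, a change in the number of cells of one kind and a change in RNA per cell cannot be told apart.

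Levels of different genes were compared as CPM per kilobase of annotated exons. Among the pore-forming calcium channel genes, Cacna1c, the alpha1 subunit of an L-type channel, was highest, with a level of 18.5 ± 1.20 CPM per kilobase (SD, n = 8). Cacna1i, a T-type alpha1 subunit, followed with 6.73 ± 0.41, and Cacna1d, the other widely expressed L-type alpha1 subunit, with 3.27 ± 0.31. The ranges of these genes over the 8 libraries did not overlap. Cacna1a (P/Q-type) and Cacna1e (R-type) were far lower, at 0.149 ± 0.013 and 0.0831 ± 0.0303 CPM per kilobase. Cacna1c thus made up a mean of 64.3% of the summed alpha1 level per length, Cacna1i 23.5%, Cacna1d 11.4%, Cacna1a 0.52% and Cacna1e 0.287%. With the longest transcript as the length these shares were 72.2% for Cacna1c and 16.5% for Cacna1i.

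The other 5 alpha1 genes were close to 0. Cacna1b, which encodes the N-type pore, had 0 to 2 counts per library, and Cacna1f and Cacna1s, the L-type genes of retina and skeletal muscle, had at most 2 and 1. Of the remaining T-type genes, Cacna1h had 0 to 3 counts and Cacna1g 4 to 24. Cacna1i was therefore the only T-type gene with a mean of at least 1 CPM.

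The auxiliary families were each led by 1 gene. Cacna2d1, the alpha2delta subunit known as the binding site of gabapentin, had a level of 17.9 ± 0.69 CPM per kilobase (SD, n = 8), close to that of Cacna1c, and 99.6% of its family's summed level. Cacna2d4 had 0.688 CPM, and Cacna2d2 and Cacna2d3 never exceeded 4 and 8 counts. Of the beta subunits, which bind the alpha1 subunit inside the cell, Cacnb3 reached 8.34 ± 1.52 CPM per kilobase and Cacnb2 reached 0.433 ± 0.105, while Cacnb1 and Cacnb4 stayed under 1 CPM. With the longest transcript as the length, the levels were 1.14 CPM per kilobase for Cacnb2, 29.9 for Cacna2d1, 29.7 for Cacna1c and 0.1405 for Cacna1e, so that Cacna2d1 and Cacna1c changed order. Cacng7 had 67.3 ± 2.92 CPM per kilobase, the second highest level of the members described. It belongs to the gamma family but is known mainly as a TARP, an auxiliary protein of AMPA-type glutamate receptors.

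Cacng7 lies 5′ of Cacng8 and Cacng6 in a cluster of 102.7 kb on chromosome 7 (chr7:3332955-3435667, GRCm38). The neighbours did not share its level: Cacng8 had 0.394 CPM and Cacng6 had 0 counts in all libraries. Cacng1, the gamma subunit of skeletal muscle, also had 0 counts in all libraries. A count of 0 allows up to 3 counts, which corresponds to 0.0467 to 0.0653 CPM in these libraries, counting error alone.

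Among the sodium channel alpha genes described, Scn8a, a neuronal subunit, was highest, with 4.03 ± 0.26 CPM per kilobase (SD, n = 8). Scn9a and Scn2a followed at 0.535 ± 0.149 and 0.479 ± 0.021 CPM per kilobase, and their ranges overlapped. Scn3a was lower, at 0.0991 ± 0.0203. Scn8a made up 77.1% of the summed level of the alpha genes described, Scn9a 10.2%, Scn2a 9.2% and Scn3a 1.89%. Scn9a and Scn3a are the alpha subunits best known from mouse islet cells.

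Scn2a, Scn3a and Scn9a lie with Scn1a and Scn7a in a cluster of 5 alpha genes that spans 1328 kb of chromosome 2 (chr2:65457118-66784914). Mean levels in the cluster were 6.83 CPM for Scn9a, 6.10 for Scn2a, 1.24 for Scn3a, 0.727 for Scn1a and 0.0451 for Scn7a. Scn10a and Scn11a, known from sensory neurons, and Scn4a, the alpha subunit of skeletal muscle, did not exceed 4 counts in a library.

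Hcn2 had the highest level per length of the members described, at 78.25 ± 5.77 CPM per kilobase (SD, n = 8). Hcn3 had 12.5 ± 0.58 CPM per kilobase, and the ranges of these genes did not overlap. Hcn4, the main HCN gene of the cardiac pacemaker, had 0 to 13 counts per library.

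**Figure D1:**
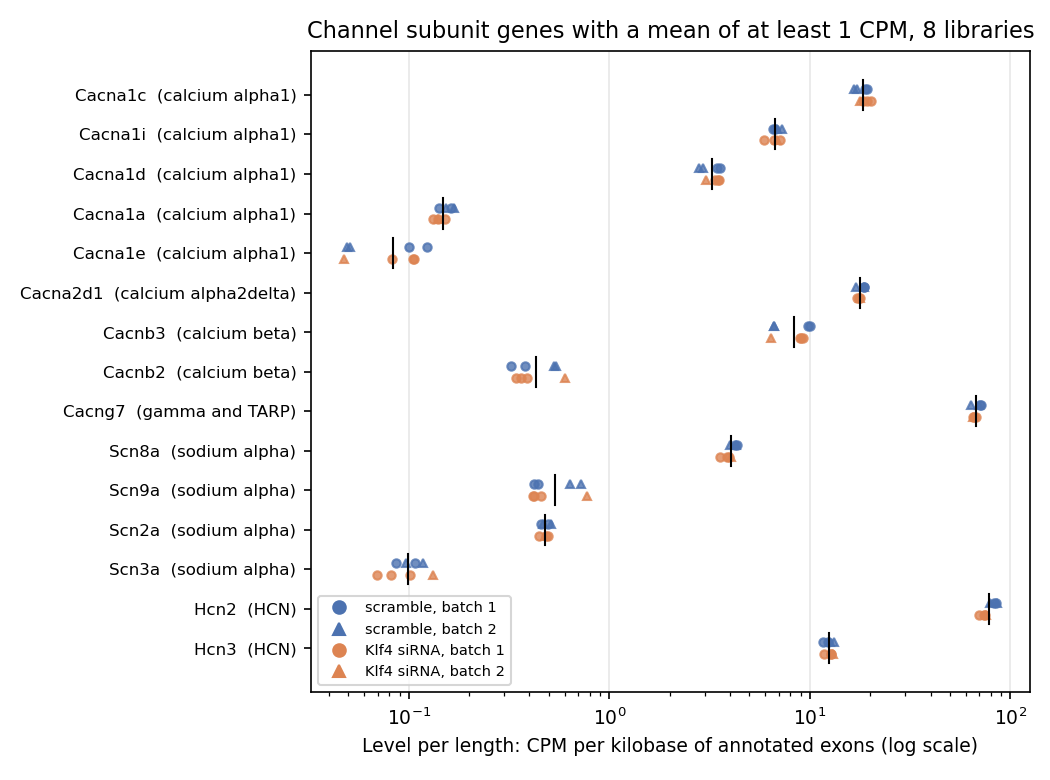
Level of 15 members with a mean of at least 1 CPM, as CPM per kilobase of annotated exons on a log axis, with 1 point per library (colour: treatment, shape: batch) and a black line at the mean of 8 libraries. Hcn2 (78.25) and Cacng7 (67.3) lie highest, and Cacna1e (0.0831) lies lowest, with its batch 2 libraries to the left of its batch 1 libraries.

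The limit of 1 CPM was set on counts divided by library totals, without further scaling, and fell between Scn3a (1.24) and Scn2b (0.875). Of the 27 genes below it, 8 had enough counts to be tested and 19 did not. The exons of Cacna1a, Cacna1d, Cacnb2, Hcn3 and Scn9a overlap annotations of the opposite strand, and how strand was used in counting is not given in the sources used here. The overlapping annotations themselves had at most 10 counts per library, that maximum being for Pklr beside Hcn3.

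**Figure D2:**
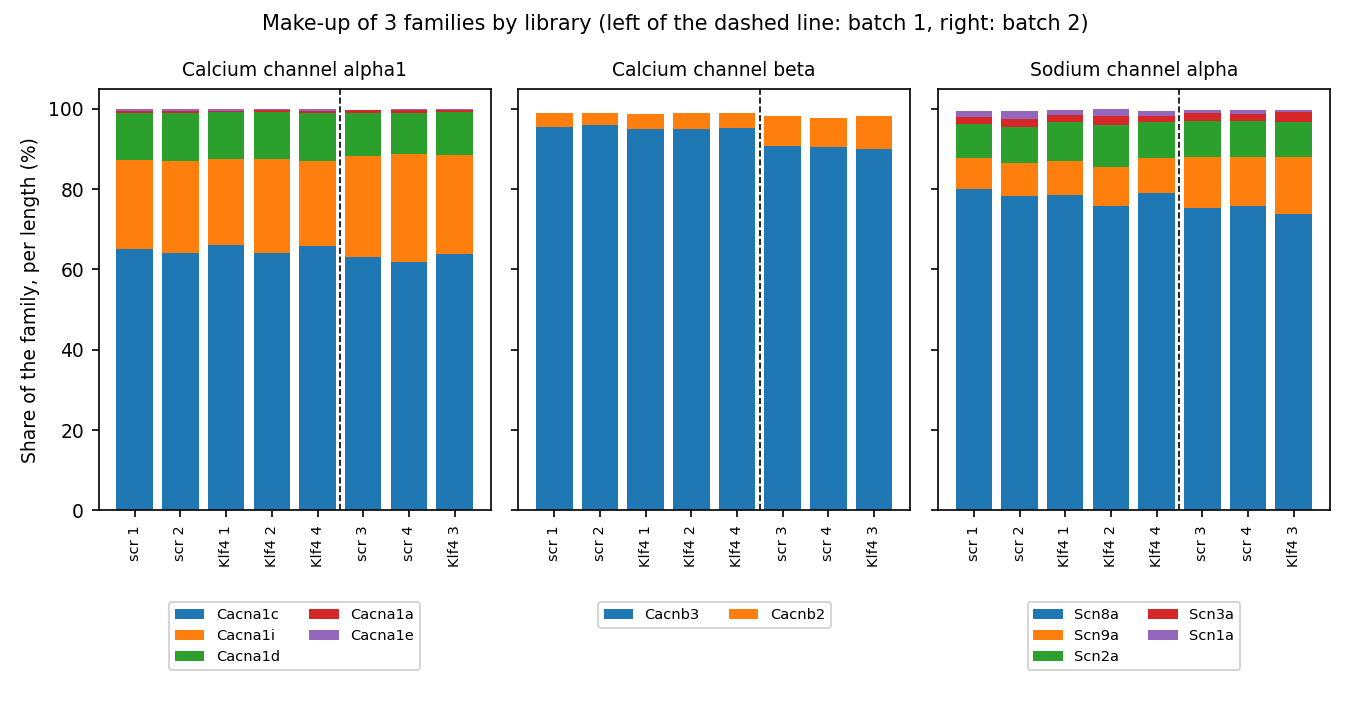
Share of each gene in the summed level per length of its family, in percent, in 3 families, for each library (scr: scramble, Klf4: Klf4 siRNA), with batch 1 left and batch 2 right of the dashed line. Genes under 1% of a family and under 1 CPM are not drawn. The leading gene was the same in every library, and Cacnb2 held a mean of 3.65% of the beta family in batch 1 and 7.66% in batch 2 (6.37% and 13.0% with the longest transcript as the length).

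The design sets cells depleted of Klf4 against control cells, so the members were first compared by treatment in a fit that held batch as well. Hcn2 and Scn8a, the leading HCN and sodium channel genes among the members described, fell after Klf4 siRNA. Of the members described, no gene rose past the threshold of 0.05, and no calcium channel gene passed it. Thus 2 of the 15 members (13.3%) passed, both lower, where 11.7% of all 16333 genes tested passed (4.88% higher and 6.81% lower) and 14.8% of tested genes with a mean of at least 1 CPM did (6.22% higher and 8.59% lower). The members' share lies near this background and says nothing particular about channel genes. The median log2 fold change of the 15 members was -0.028, against 4.33e-05 over all genes tested.

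Hcn2 (ENSMUSG00000020331, chr10:79716634-79736108, plus strand, at most 9 exons per transcript) had 265, 271, 252 and 274 CPM in scramble replicates 1 to 4. The values after Klf4 siRNA were 223.5, 236, 241 and 237.5 CPM. Every Klf4 siRNA library lay below every scramble library. The means were 265.5 ± 9.81 and 234.5 ± 7.58 CPM (SD, n = 4 each). The log2 difference was -0.18 ± 0.03 SE (edgeR adjusted p = 0.00089), that is 88.5% of the scramble level. Between group means of log2 CPM the difference was -0.20 within batch 1 and -0.13 within batch 2.

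Scn8a (ENSMUSG00000023033, chr15:100869858-101045938, plus strand, at most 27 exons per transcript) had 68.3, 66.9, 67.4 and 62.8 CPM in scramble replicates 1 to 4. The values after Klf4 siRNA were 62.1, 56.1, 63.6 and 60.85 CPM. The groups overlapped in batch 2, where Klf4 siRNA replicate 3 lay above scramble replicate 4. Means were 66.4 ± 2.43 and 60.65 ± 3.25 CPM (SD, n = 4 each), with a log2 difference of -0.13 ± 0.04 SE (edgeR adjusted p = 0.042). This call was lost when any of 6 libraries was left out: adjusted p was 0.238, 0.178 and 0.103 without scramble replicates 1, 2 and 3 and 0.059, 0.094 and 0.069 without Klf4 siRNA replicates 1, 2 and 4. It was also lost without the batch term (0.198), with a replicate block in place of batch (0.074), with library totals alone (0.076) and with the likelihood ratio test (0.072). The difference was -0.18 within batch 1 and -0.03 within batch 2.

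**Figure D3:**
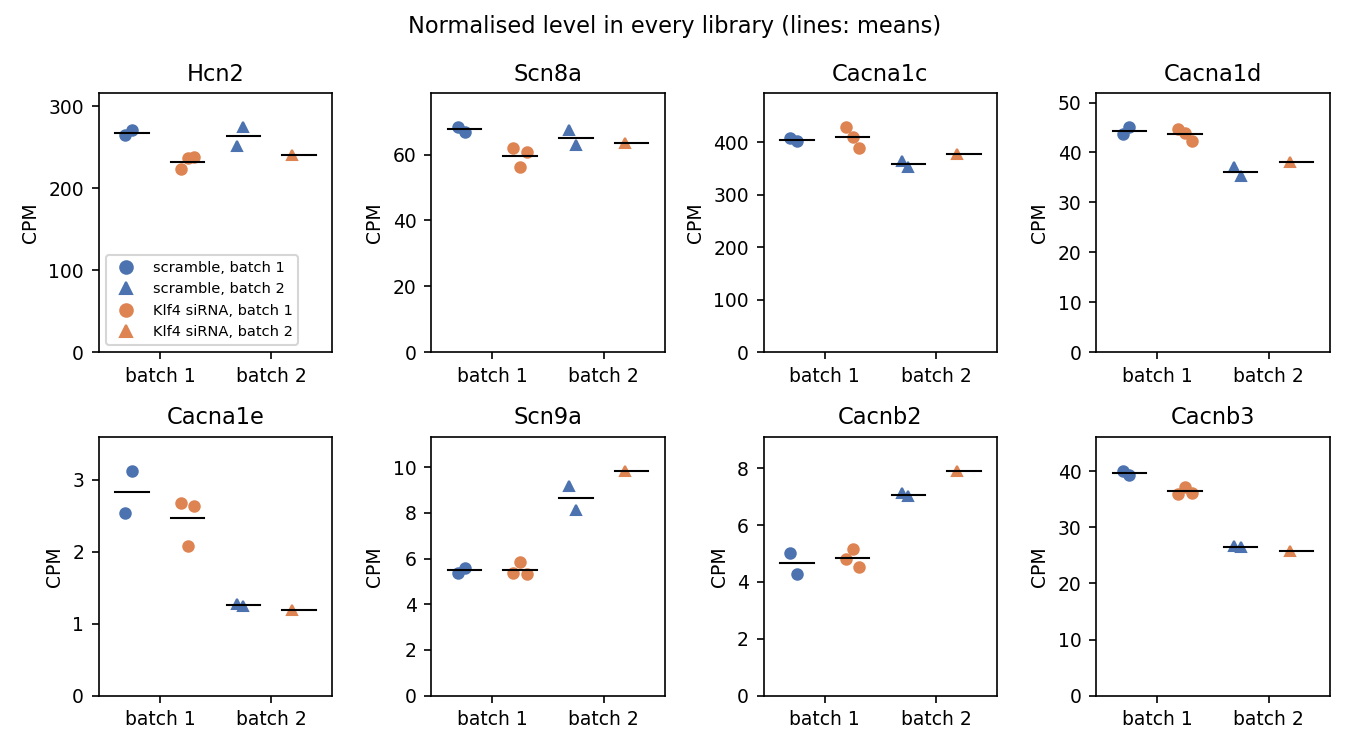
Normalised level (CPM, axes from 0) of 8 members in every library, with colour for treatment, shape for batch and lines for the mean of each treatment within a batch. For Hcn2, all Klf4 siRNA libraries (223.5 to 241 CPM) lie below all scramble libraries (252 to 274 CPM). Scn9a and Cacnb2 are higher and Cacnb3, Cacna1c, Cacna1d and Cacna1e lower in batch 2, in either treatment.

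Klf4 binds GC-rich DNA with a CACCC core, so the 250 bases before the RefSeq start sites were read for that word. Promoter entries were found for 12 of the 15 members, 19 in all. The windows of the genes that fell, Hcn2 and both starts of Scn8a, are shown with that of Scn9a, a sodium channel gene that did not pass the treatment test. They are GRCm38.p6 sequences from RefSeq, written 5′ to 3′ on the gene's own strand and ending at the base before the start, with CACCC or its reverse complement GGGTG in capitals.
Hcn2, chr10:79716384-79716633, plus strand: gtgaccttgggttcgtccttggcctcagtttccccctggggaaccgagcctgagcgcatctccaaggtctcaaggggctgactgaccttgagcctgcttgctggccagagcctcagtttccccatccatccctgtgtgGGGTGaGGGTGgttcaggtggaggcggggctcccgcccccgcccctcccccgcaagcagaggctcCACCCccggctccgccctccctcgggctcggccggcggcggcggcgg
Scn8a, first start, chr15:100870395-100870644, plus strand: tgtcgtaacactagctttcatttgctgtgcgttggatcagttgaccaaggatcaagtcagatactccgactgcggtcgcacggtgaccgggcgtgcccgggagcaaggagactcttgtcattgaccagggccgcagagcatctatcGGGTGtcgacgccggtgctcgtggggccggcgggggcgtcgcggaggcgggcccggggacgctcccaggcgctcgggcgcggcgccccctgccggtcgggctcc
Scn8a, second start, chr15:100936021-100936270, plus strand: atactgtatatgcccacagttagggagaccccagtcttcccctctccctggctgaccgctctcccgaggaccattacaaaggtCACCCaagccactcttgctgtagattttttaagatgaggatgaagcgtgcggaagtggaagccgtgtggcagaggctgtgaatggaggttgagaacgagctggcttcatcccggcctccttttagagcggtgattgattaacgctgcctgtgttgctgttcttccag
Scn9a, chr2:66634963-66635212, minus strand: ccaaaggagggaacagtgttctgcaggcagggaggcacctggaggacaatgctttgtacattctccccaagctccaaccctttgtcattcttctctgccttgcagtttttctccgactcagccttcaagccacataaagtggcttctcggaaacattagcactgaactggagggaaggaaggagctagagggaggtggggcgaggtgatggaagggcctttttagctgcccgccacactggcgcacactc

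The Hcn2 window held 3 matches, each Scn8a window 1, and the Scn9a window 0. CACCC was present in at least 1 window of 7 of the 10 members that have a promoter entry and did not pass the treatment test (Scn9a is 1 of the 10), among them Cacnb3 with 3 matches in 1 window and Cacna1c and Cacna2d1 with 2. On either strand, CACCC occurred in 12 of the 19 member windows and in 52% of all 32851 promoter windows of this length. The longer word CACACCC (reverse complement GGGTGTG, which contains GGGTG) occurred in 0 of the 19 and in 6.93% of all. The GC box CCCGCCC (reverse complement GGGCGGG) occurred in 6 of the 19 and in 23.4% of all, and the Hcn2 window held 2. A match is a description of the sequence and does not show that a factor binds there.

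The remaining 13 members did not pass the treatment test. Of these, Cacnb3 and Cacng7 had an unadjusted p under 0.05, with lower fitted values after Klf4 siRNA. With the batches pooled, the groups of both genes overlapped. Within each batch, however, Cacnb3 was lower in every Klf4 siRNA library than in every scramble library. It had 36.0 to 37.2 against 39.3 and 40.1 CPM in batch 1, and 25.8 against 26.6 and 26.6 CPM in batch 2. The Cacng7 groups overlapped within batch 2 but not within batch 1. Cacnb3, a calcium channel beta subunit, had a log2 fold change of -0.10 with a 95% interval from -0.17 to -0.02 (edgeR adjusted p = 0.096). Cacng7 had 172.5, 174.4, 155.5 and 169.7 CPM in the scramble group and 163.9, 159.0, 158.1 and 160.7 CPM in the Klf4 siRNA group, a log2 difference of -0.08 ± 0.03 SE with an interval from -0.15 to -0.02 (edgeR adjusted p = 0.088, and 0.022 without scramble replicate 3).

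For the abundant calcium channel genes the intervals were narrow. The log2 fold change of Cacna1c was 0.04 (95% interval -0.03 to 0.10), that of Cacna1d was 0.01 (-0.06 to 0.09) and that of Cacna1i was -0.03 (-0.13 to 0.08). Cacna2d1 had 231.0, 231.7, 231.8 and 211.1 CPM in the scramble group and 217.4, 212.3, 221.7 and 220.1 CPM in the Klf4 siRNA group. Scramble replicate 4 was the lowest of all 8, the other 3 scramble libraries the highest, and the log2 difference was -0.06 ± 0.03 SE (-0.13 to 0.01, edgeR adjusted p = 0.263, and 0.047 without scramble replicate 4). Hcn3, a relative of Hcn2, had a log2 fold change of 0.04 (-0.03 to 0.12). The scarcer genes were measured with wider intervals: -0.15 (-0.40 to 0.10) for Cacna1a, -0.17 (-0.43 to 0.09) for Cacna1e and 0.01 (-0.33 to 0.36) for Scn3a. For Cacnb2, Scn2a and Scn9a the log2 fold changes were 0.10, -0.01 and 0.08.

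Among the 8 tested genes under 1 CPM, 0 passed the treatment test (edgeR), where 0.719% of all tested genes under 1 CPM did (0.166% higher and 0.553% lower), and 1 had an unadjusted p under 0.05. This was Scn3b, a sodium channel beta subunit, with 15, 16, 25 and 18 counts in scramble replicates 1 to 4 and 30, 29, 24 and 32 in the Klf4 siRNA group. The counts overlapped between groups in batch 2, whereas the normalised levels, 0.27 to 0.39 and 0.46 to 0.61 CPM, did not. The log2 difference was 0.70 ± 0.23 SE (edgeR adjusted p = 0.059, and 0.049 without scramble replicate 3). For the other 7, Cacna2d4, Cacnb1, Cacnb4, Cacng3, Cacng8, Scn1a and Scn2b, the log2 differences ran from -0.38 (Scn1a) to 0.18 (Cacna2d4).

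**Figure D4:**
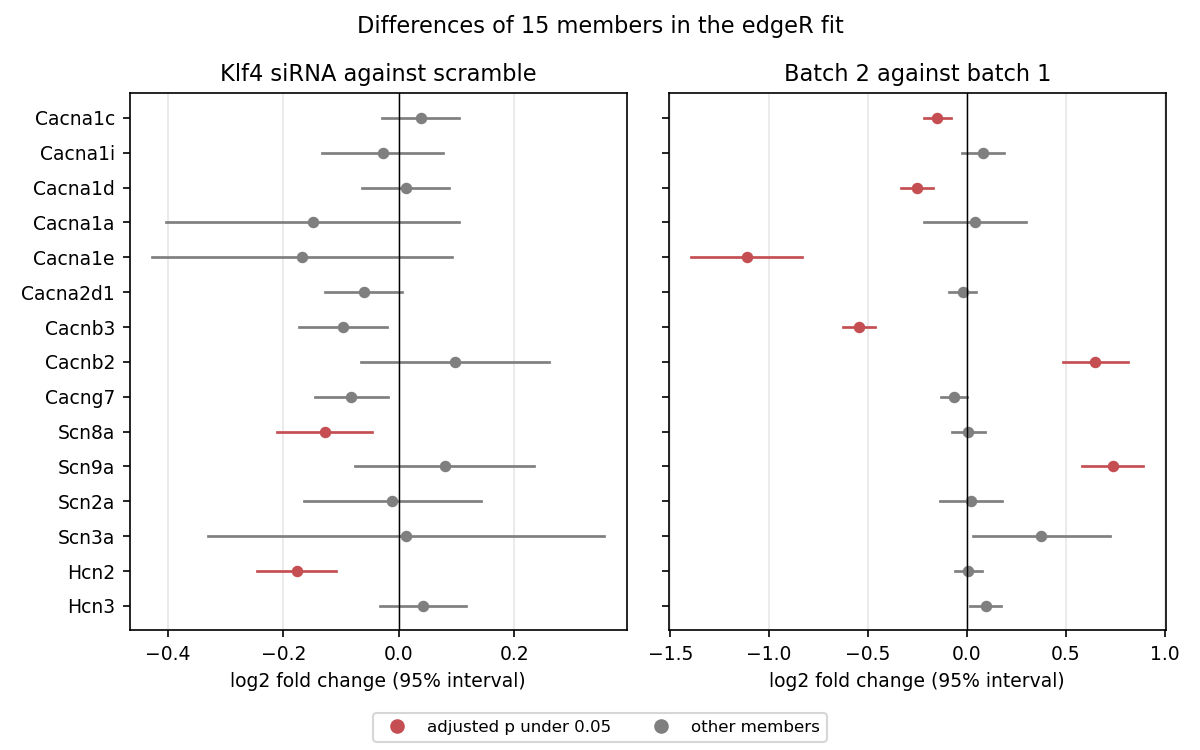
Log2 fold change of 15 members with 95% intervals in the edgeR fit of batch and treatment, for Klf4 siRNA against scramble (left) and batch 2 against batch 1 (right; the axes differ in scale), with members past an adjusted p of 0.05 in red. In the left panel Hcn2 (-0.18) and Scn8a (-0.13) are red, and in the right panel 6 members are, from -1.11 for Cacna1e to 0.74 for Scn9a.

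The members were next compared between the 3 libraries of batch 2 and the 5 of batch 1, with treatment as a term. Scn9a and Cacnb2 were higher in batch 2, and Cacna1c, Cacna1d, Cacna1e and Cacnb3 were lower. These are 6 of the 15 members (40%), where 32.7% of all genes tested and 37.8% of those with a mean of at least 1 CPM differed between batches. That share, too, lies near the background. All 6 calls were kept in each alternative that tested the gene, including the fit of the scramble libraries alone.

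Hcn2 and Scn8a, the leading HCN and sodium channel genes among the members described, did not pass. The log2 fold change between batches was 0.01 for Hcn2 (95% interval -0.06 to 0.08, edgeR adjusted p = 0.885) and 0.01 for Scn8a (-0.08 to 0.09), and Hcn3 had 0.10 (edgeR adjusted p = 0.054). The value for Hcn3 was under 0.05 without Klf4 siRNA replicate 1 (0.0475) or 2 (0.042), and with genes filtered at a mean of 1 CPM (0.039) or 5 CPM (0.033).

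Scn9a had 5.39, 5.61, 5.36, 5.84 and 5.31 CPM in batch 1 and 9.19, 8.13 and 9.85 CPM in batch 2, a 1.67-fold difference without overlap (log2 difference 0.74 ± 0.07 SE, edgeR adjusted p = 1.21e-07). Scn1a, its neighbour in the chromosome 2 cluster and a gene under 1 CPM, was lower in batch 2, with 29, 33 and 20 counts against 35 to 54 in batch 1 (log2 difference -1.02 ± 0.20 SE, edgeR adjusted p = 0.00053). Scn2a, on the far side of Scn1a, had 0.02 (95% interval -0.14 to 0.18). The ratio of Scn9a to Scn8a counts within a library, into which no scaling enters, was 0.0789 to 0.104 in batch 1 and 0.129 to 0.155 in batch 2. Scn3a, also of the chromosome 2 cluster, had 0.38 ± 0.17 SE and did not pass (edgeR adjusted p = 0.091). Leaving out scramble replicate 2 took this to 0.047 and leaving out scramble replicate 4 to 0.044, and its difference was 0.16 without Klf4 siRNA replicate 3. Scn7a had too few counts to be tested.

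Both calcium channel beta subunit genes above 1 CPM differed, in opposite directions. Cacnb3 had 40.1, 39.3, 36.0, 37.2 and 36.1 CPM in batch 1 and 26.6, 26.6 and 25.8 CPM in batch 2 (log2 difference -0.55 ± 0.04 SE, edgeR adjusted p = 5.51e-10). Cacnb2 had 5.01, 4.29, 4.81, 5.15 and 4.54 CPM in batch 1 and 7.14, 7.01 and 7.91 CPM in batch 2 (log2 difference 0.65 ± 0.08 SE, edgeR adjusted p = 1.64e-06). Neither gene's batches overlapped. The ratio of Cacnb2 to Cacnb3 counts was 0.109 to 0.139 in batch 1 and 0.264 to 0.307 in batch 2.

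Both L-type pore genes were lower in batch 2 by small amounts. Cacna1c had 408, 402, 428, 409 and 389 CPM in batch 1 and 364, 352 and 378 CPM in batch 2, with no overlap (log2 difference -0.15 ± 0.03 SE, edgeR adjusted p = 0.0014). Cacna1d had 43.6, 45.05, 44.6, 43.9 and 42.3 CPM in batch 1 and 37.1, 35.2 and 38.1 CPM in batch 2, again without overlap (log2 difference -0.25 ± 0.04 SE, edgeR adjusted p = 2.46e-05). Cacna1e, the R-type gene, had 2.54, 3.12, 2.68, 2.075 and 2.64 CPM in batch 1 and 1.28, 1.24 and 1.195 CPM in batch 2, a level 2.16-fold lower (log2 difference -1.11 ± 0.13 SE, edgeR adjusted p = 1.64e-06). Cacna1i and Cacna1a did not pass, at 0.08 and 0.04, although Cacna1i did without Klf4 siRNA replicate 2 (edgeR adjusted p = 0.041). Cacng7 had -0.065 (edgeR adjusted p = 0.122) and passed without scramble replicate 4 (0.044) and with library totals alone (-0.10, 0.017).

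Of the 8 tested genes under 1 CPM, 3 differed between batches (37.5%), all lower in batch 2, where 14.8% of all tested genes under 1 CPM differed (10.3% higher and 4.51% lower). Besides Scn1a these were Scn2b, with 49 to 79 counts in batch 1 and 17, 18 and 12 in batch 2 (log2 difference -2.14 ± 0.21 SE, edgeR adjusted p = 7.53e-08), and Cacng3, with 25 to 34 counts in batch 1 and 6, 8 and 1 in batch 2 (log2 difference -2.69 ± 0.37 SE, edgeR adjusted p = 8.74e-06). Scn2b encodes a sodium channel beta subunit and Cacng3 another TARP. The count of 1 in Klf4 siRNA replicate 3 makes the size of the Cacng3 difference imprecise (95% interval -3.46 to -1.91). The filter asked for enough counts in at least 4 libraries, the size of a treatment group, and batch 2 holds 3. A scarce gene with counts in batch 2 alone could thus not be tested, and Cacng3 was tested through its batch 1 counts. Cacna1g (12 to 24 counts in batch 2, 4 to 8 in batch 1) and Cacna2d3 (3 to 8 and 0 to 1) were not tested. The shared direction of the 3 was therefore not weighed.

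Whether the response to Klf4 siRNA differed between batches was tested with an interaction term. It passed for 0 of the 15 members, of which 0 had an unadjusted p under 0.05, and for 0 genes (0%) of all 16333 (edgeR; 540 at an unadjusted p under 0.05). DESeq2 and limma-voom also called 0 of the 15. The interaction on the log2 scale was 0.08 ± 0.07 SE for Hcn2 and 0.15 ± 0.08 SE for Scn8a (edgeR unadjusted p = 0.286 and 0.075). With 1 Klf4 siRNA library in batch 2, interactions of this size could not be told from 0. Of the 8 tested genes under 1 CPM, 0 passed and Cacng3 had an unadjusted p of 0.0287, with a single count in that library.

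Genes that regulate the channels or handle the calcium and sodium beside them were read from the same fits. Of 14 regulators of calcium channels, 10 were tested and 2 passed (20%, against the 11.7% of all genes tested), both lower after Klf4 siRNA. They were Calm3, a calmodulin gene (log2 difference -0.20 ± 0.03 SE, edgeR adjusted p = 9.87e-05), and Gem, a small GTPase that inhibits calcium channels through their beta subunit (-0.42 ± 0.12 SE, edgeR adjusted p = 0.029). Gem, at a mean of 1.90 CPM, did not pass when any scramble library was left out (0.051 to 0.082) or without Klf4 siRNA replicate 3 (0.253). When batch was not in the fit, its difference was -0.98 (0.630). Over the 10 genes the median log2 difference was -0.033.

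Of 9 partners of sodium and HCN channels, 5 were tested and 0 passed the treatment test, where 11.7% of all genes tested did. This list holds Ank3, which anchors sodium channels to the cytoskeleton, and Pex5l, an auxiliary subunit of HCN channels. The 4 genes of the sodium leak channel complex were tested and 0 passed, against the same 11.7%. Lists this short cannot tell 0 from that share. Its pore, Nalcn, had a mean of 0.622 CPM. Nalcn and Gem had the largest batch differences of these lists, 7.49-fold and 4.49-fold higher in batch 2 (edgeR adjusted p = 1.3e-09 and 9.44e-12).

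Of 23 genes for calcium pumps, exchangers and stores, 21 were tested and 5 passed (23.8%, against 11.7% of all genes tested and 14.8% of those with a mean of at least 1 CPM), 2 higher and 3 lower. Mcu, the pore of the mitochondrial calcium uniporter, rose by 0.16 in log2 units (edgeR adjusted p = 0.0099), and Stim2, a calcium sensor of the endoplasmic reticulum, by 0.12 (0.012). Stim1, its close relative, fell by 0.15 (edgeR adjusted p = 0.016), and Slc8a2, a sodium-calcium exchanger, by 0.27 (0.012). The fifth gene, Atp2a3, a calcium pump of the endoplasmic reticulum, had a mean of 0.688 CPM and fell by 0.66 (edgeR adjusted p = 0.032). Leaving out scramble replicate 1 took the adjusted p to 0.0695 for Mcu, 0.059 for Stim2, 0.102 for Stim1 and 0.065 for Slc8a2, and leaving out Klf4 siRNA replicate 3 took it to 0.072 for Mcu, 0.171 for Stim1 and 0.107 for Slc8a2. Calls were also lost without scramble replicate 2 for Stim2 (0.140), and without scramble replicate 3 (0.056) or Klf4 siRNA replicate 1 (0.0545) for Stim1. Without the batch term the adjusted p was 0.425 for Stim1, 0.401 for Stim2 and 0.325 for Slc8a2, and the difference of Stim1 was -0.25. The call of Atp2a3 was lost without scramble replicate 2 (0.142) or 4 (0.075) and without Klf4 siRNA replicate 1 (0.070) or 3 (0.199), and without the batch term (0.094). Over the 21 genes the median was -0.024. Between batches, 15 of these 21 genes differed, 9 higher and 6 lower in batch 2 (71.4%). In the other lists 5 of 10 calcium channel regulators (50%), 3 of 5 sodium and HCN channel partners (60%) and 2 of 4 leak channel genes (50%) differed, against 32.7% of all genes tested and 37.8% of those with a mean of at least 1 CPM.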

How the data were processed

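Whole-number read counts per gene were deposited for 8 libraries as 1 table with 1 column per library. Per the submitters' processing notes, FastQC, STAR, featureCounts and DESeq2 were used with mm10, and the name of the deposited count table adds trimming with cutadapt; versions, the annotation and the strand setting are not given in the sources used here. Per the labels, RNA was made into poly(A) libraries, the replicates are biological, and edgeR with batch correction was planned. All 8 columns were mapped to samples by name and 0 were left unmapped.

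All 55536 gene identifiers and symbols matched GENCODE M21 (GRCm38), from which positions and exon lengths were taken. Genes kept by filterByExpr (16333) were fitted with edgeR 4.0.16 (R 4.3.3) by a robust quasi-likelihood model of batch and treatment on TMM-scaled counts (factors 0.964 to 1.025), with Benjamini-Hochberg adjustment over all genes tested and a threshold of 0.05. Levels are TMM-scaled CPM. Within-batch differences use log2 CPM with a prior count of 2. Totals of 45954151 to 64185987 counts put 3 counts, the limit a count of 0 allows, at 0.0467 to 0.0653 CPM. The steps were tested on simulated data.

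Members with a mean of at least 1 CPM were named, as were tested members below it; results for a few members are not reported here. Of each other list, up to 4 genes past the treatment threshold were named by adjusted p, and of all lists the 2 with the largest batch difference; Atp2a3 was added after its values were seen. The members and lists were chosen with earlier results of these data known. Alternatives were other scalings and filters, the edgeR likelihood ratio test, DESeq2 1.42.0, limma-voom (limma 3.58.1), no batch term, a replicate block, single batches or groups, and leaving out each library.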

Additional observations from a re-analysis of the deposited data

Results flagged for a closer look

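In 3 of the 30 groups of 4 libraries examined (15 members in 2 treatments), 1 library lay apart from the other 3, with a gap to its nearest neighbour, as a part of the group's range, above Dixon's 95% critical value. Chance gives this in about 1 of 20 groups, or 1.5 of 30. Klf4 siRNA replicate 3 was the library apart in 2 of the 3. It was highest for Scn9a (9.85 CPM against 5.31 to 5.84, gap 0.883 of the range) and lowest for Cacnb3 (25.8 CPM against 36.0 to 37.2, gap 0.9). It is the single Klf4 siRNA library of batch 2, and both scramble libraries of batch 2 were likewise higher (Scn9a) or lower (Cacnb3) than those of batch 1. The last was Cacna2d1 in scramble replicate 4, at 211.1 CPM against 231.0 to 231.8 (gap 0.961). The other libraries of batch 2 had 231.8 and 221.7 CPM of Cacna2d1.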

How the results depend on the processing

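The count of members changed by Klf4 siRNA was 2, and it was 1 with library totals alone, with the edgeR likelihood ratio test, without the batch term and with a replicate block. Leaving out 1 library gave 1 to 3, and each other alternative gave 2. Hcn2 passed in all 19 alternatives (log2 -0.21 to -0.16, adjusted p 4.12e-06 to 0.037). Scn8a lost its call in 10 of 19, with adjusted p up to 0.238. The cause was not tested. The count of members that differed between batches was 6, and 6 to 8 when 1 library was left out. The interaction count was 0 in each alternative; Klf4 siRNA replicate 3 could not be left out there. None of the called treatment or batch differences of the 15 members reversed, and 13 of their 22 uncalled ones changed sign and 6 passed the threshold under at least 1 alternative (treatment for Cacna2d1 and Cacng7, batch for Scn3a, Hcn3, Cacng7 and Cacna1i). Libraries with the same replicate number did not deviate together throughout (r = 0.49, 0.42, 0.72 and -0.34 for numbers 1 to 4), and 5 of 8 correlated best with their own number. Libraries numbered 1 to 3 share a batch with their namesake, and those numbered 4 do not. With batch and treatment taken out, r was -0.0005, -0.04, -0.30 and 0.12, so the numbers were not taken as pairs. Depth limits members under 1 CPM: 19 could not be tested, and a count of 0 allows up to 3 counts.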
